A study of Mus musculus with 5 samples.

Results

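The genes described here are the collagen chains and the proteins that modify, fold and cross-link them: every symbol of the cellular gene table that begins with Col, a number, the letter a and a number, together with the lysyl oxidases (Lox, Loxl1, Loxl2, Loxl3, Loxl4), the prolyl hydroxylase subunits (P4ha1, P4ha2, P4ha3), the lysyl hydroxylases (Plod1, Plod2, Plod3), the chaperone gene Serpinh1 and the enhancer gene Pcolce. Of 21259 genes in the table, 58 matched. They were 44 collagen chains, 13 genes of the modifying group and Col4a3bp, which carries a collagen-like symbol but encodes a ceramide transfer protein. All libraries came from NIH3T3, an immortalized mouse fibroblast line, carrying a stable dCas9-CRISPR activator, that is, a nuclease-dead Cas9 that switches on transcription where a guide RNA takes it. Plasmids for a scramble guide (2 libraries, the control) or for guides to LINE-1 retrotransposons (3 libraries, called LINE-1 libraries here) were transfected, and total RNA was taken 48 h later. Both groups therefore carry the activator and a guide plasmid and differ in the guide. The labels do not say whether libraries of a group came from separate cultures or transfections, so every p-value here measures only the spread between these libraries, which may be technical. In bulk RNA, fewer cells that express a gene and less RNA per cell cannot be told apart.

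Collagens are trimers of long chains wound into a helix. Chains are hydroxylated on proline and lysine in the endoplasmic reticulum, folded with the help of the Serpinh1 product, secreted, trimmed of their propeptides and, for the fibril-forming types, cross-linked outside the cell by lysyl oxidases. Fibroblasts make mainly the fibrillar types I, III and V, type VI filaments and some type IV, while types II, IX, X and XI are typical of cartilage and type XVII of skin epithelium.

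Values are normalized reads, the authors' count of reads per gene divided by a factor for each library, so that libraries of different depth can be compared. Between 30681384 and 45596490 reads per library were recovered from the gene table. The guide labels were checked on the repeat table, where the young LINE-1 subfamily L1MdTf_I had 329 and 313 normalized reads in the scramble libraries and 655, 717 and 643 in the LINE-1 libraries. Fibroblast markers were present at high levels except Fap, which had 2 to 18 recovered reads per library and was not tested. The 12 genes of that list summed to 402679.7 to 445497 normalized reads in the scramble and 294899.8 to 303788 in the LINE-1 libraries. Fn1 alone had 211121 to 258551 and 161132 to 163691, and the other 11 genes summed to 186946 to 191559 and 133035 to 142655. Of the 11 tested, 9 were lower, where 25.4% of all tested genes were.

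With LINE-1 guides, most of the collagen genes with the highest read counts in these fibroblasts fell, and several with few reads rose. Type I collagen fell by 38.0% in summed signal, Lox, Col3a1, Col16a1 and the type VI chains Col6a1, Col6a2 and Col6a3 fell too, and the main type IV chains Col4a1 and Col4a2 showed changes near 0. The largest rises were in Col6a6, Col10a1, Col23a1 and Col17a1. Of the 58 genes, 54 had a mean of at least 10 normalized reads and were tested with limma at an adjusted p of 0.05 over all 14337 genes tested. Of these 54, 12 (22.2%) were higher and 22 (40.7%) lower, and 20 did not pass. Over all tested genes, 18.2% were higher and 25.4% lower, 43.5% in either direction. The counts given for each list below are to be read beside these shares. The 2 groups of libraries did not overlap for 42 of the 54 genes tested, where 61.8% of all tested genes had groups that did not overlap. The genes not tested were Col9a2, Col6a5, Col13a1 and Loxl2, with means between 2.23 and 9.15. Among those tested, Col6a6, Col8a2 and Col15a1 had a scramble mean under 10 and entered through their LINE-1 values, so the count of higher genes is not a neutral count. Rescaling the libraries by TMM turned the balance of calls over all genes from 2606 higher and 3637 lower to 3051 higher and 2538 lower, and gave 13 higher and 20 lower among the collagen and modifying genes.

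**Figure D1:**
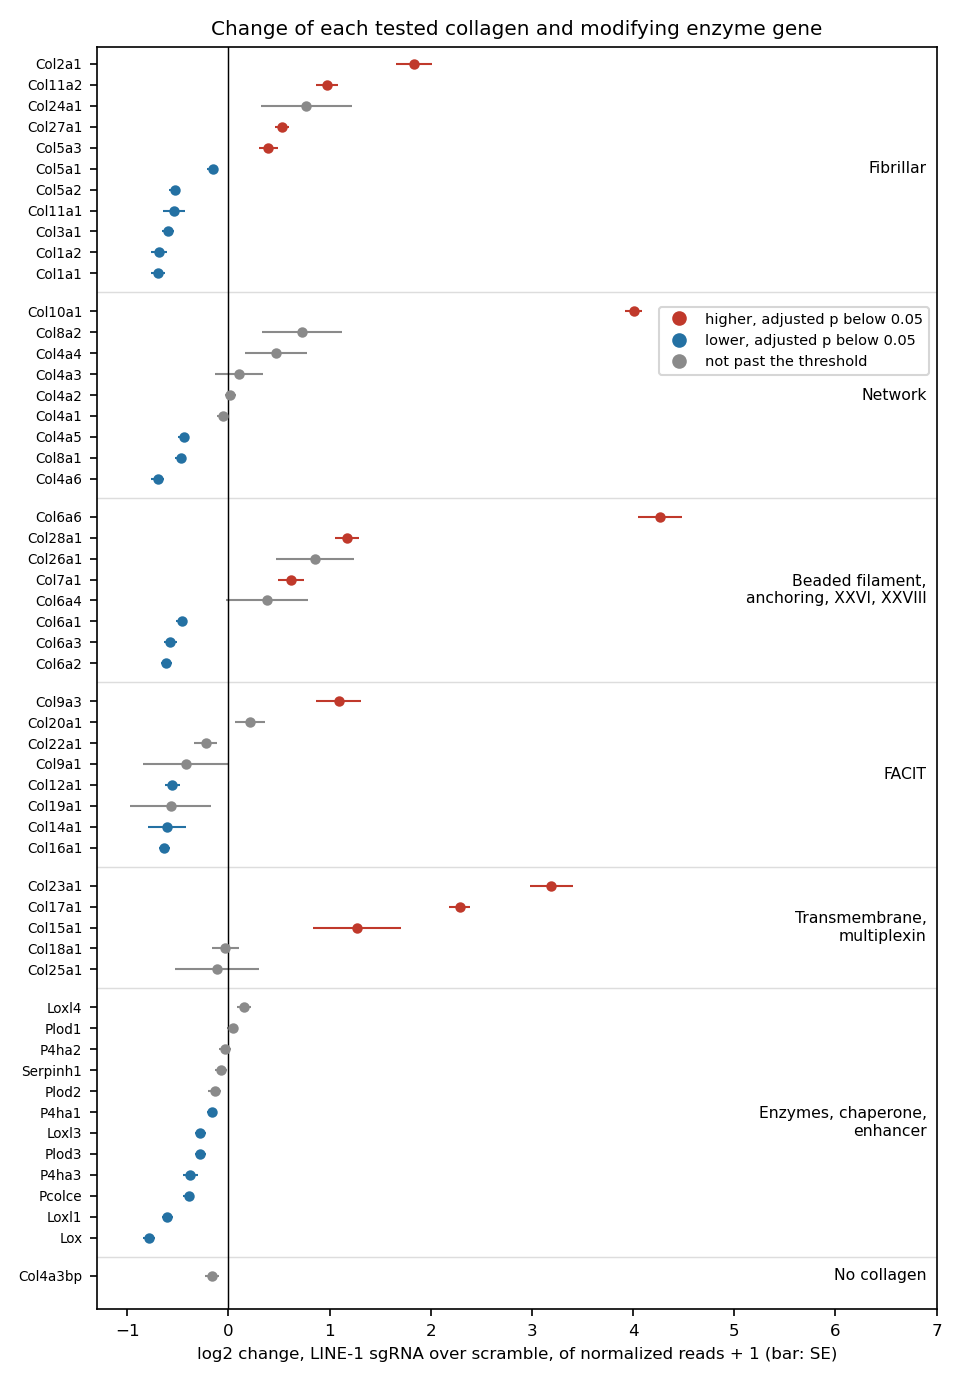
Change of each tested collagen or modifying gene in LINE-1 against scramble libraries (x axis, log2 of normalized reads plus 1; bars, SE), grouped by role, with color for higher, lower or not past an adjusted p of 0.05 in limma. Col6a6 (4.26), Col10a1 (4.01), Col23a1 (3.19) and Col17a1 (2.29) stand far to the right, and Lox (-0.78) lies farthest to the left.

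The direction of change went with the read count of the gene. Of 15 members with a mean of at least 10000 normalized reads, 12 were lower and none higher by limma, with a median log2 change of -0.57. None of the 15 was higher at an unadjusted p of 0.05 either, nor with edgeR or DESeq2. Over all 474 genes at that level, 53.8% were lower and 11.0% higher (64.8% in either direction), with a median of -0.15. Of the 29 members with a mean of at least 1000, 19 were lower and 2 higher (median -0.39), where 35.6% and 15.0% of all 7246 such genes were, 50.6% in either direction (median -0.09). Among the 25 members between 10 and 1000, the balance was the other way, with 10 higher and 3 lower (median 0.47), where 21.4% of all 7091 such genes were higher and 14.9% lower. These classes use the mean of all 5 libraries, so the LINE-1 values help to set them and the counts are not neutral. Col6a6 and Col15a1, among the 10 higher, had scramble means of 8.37 and 7.01. Col10a1, counted at 1000 or more, had a scramble mean of 158. The 12 genes that rose reached LINE-1 means of at most 2547 normalized reads, and those that fell had changes from -0.78 to -0.16. Across the 54 tested members the Spearman correlation of change with mean level was -0.58, and across all tested genes -0.19. It is a description over genes, which share the same 5 libraries and whose mean level contains the change.

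**Figure D2:**
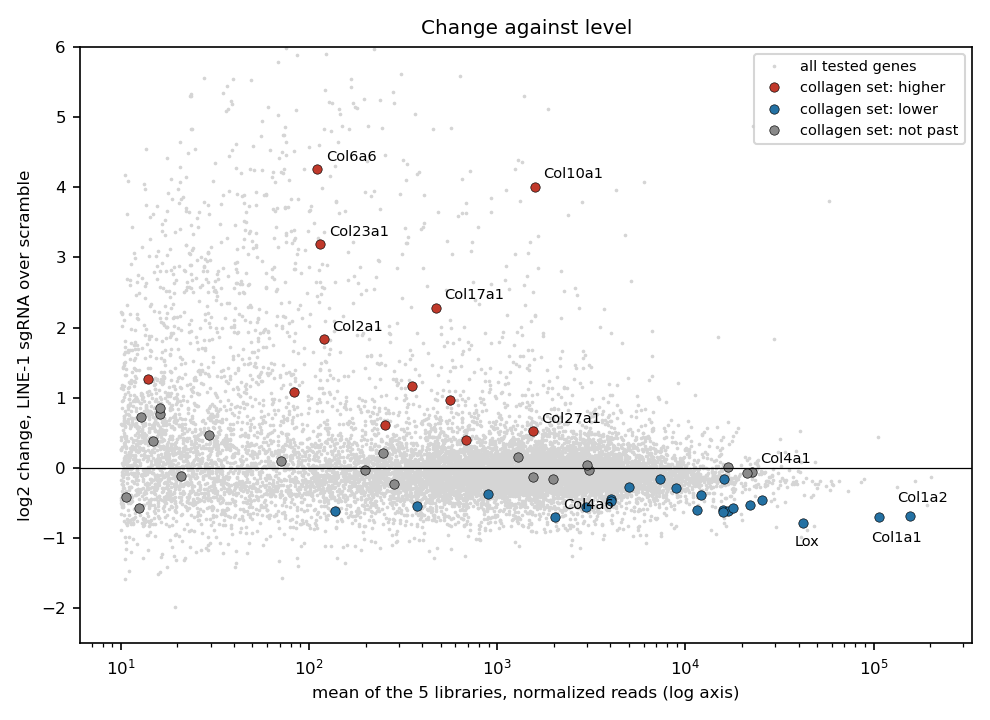
Log2 change in LINE-1 against scramble libraries (y axis) against mean normalized reads (x axis, log scale) for all tested genes in grey and for collagen and modifying genes in color; 60 genes lie outside the plotted range. Members above 10000 sit at or below 0 except Col4a2 at 0.02, and those with rises of 2 or more on the log2 scale have LINE-1 means of at most 2547.

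Promoter sequences are shown for Col1a2 and Col3a1, abundant chains that fell, and for Col10a1, Col17a1 and Col6a6, which rose from low levels. They are RefSeq sequences of build GRCm38.p6, read 5′ to 3′ along the gene's strand. Each is the longest stretch free of annotated exons within the 250 bases before the RefSeq start. For Col3a1 and Col10a1 this is all 250 bases. It runs from base 248 to 126 before the start for Col1a2, 250 to 53 for Col17a1 and 250 to 76 for Col6a6. Col1a2 is at chr6:4505370-4505492 on the plus strand, Col3a1 at chr1:45311288-45311537 on the plus strand, Col10a1 at chr10:34389731-34389980 on the plus strand, Col17a1 at chr19:47692095-47692292 on the minus strand and Col6a6 at chr9:105828161-105828335 on the minus strand. Capitals mark matches, on either strand, to 5 short motifs. These are the GC box GGGCGG, the CCAAT box, the TATA box as TATAAA, the hypoxia-response core in its form ACGTG and the Smad-binding form CAGACA.
Col1a2: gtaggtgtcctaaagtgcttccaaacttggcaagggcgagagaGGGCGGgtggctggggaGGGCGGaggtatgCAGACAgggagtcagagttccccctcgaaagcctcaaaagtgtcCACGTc
Col3a1: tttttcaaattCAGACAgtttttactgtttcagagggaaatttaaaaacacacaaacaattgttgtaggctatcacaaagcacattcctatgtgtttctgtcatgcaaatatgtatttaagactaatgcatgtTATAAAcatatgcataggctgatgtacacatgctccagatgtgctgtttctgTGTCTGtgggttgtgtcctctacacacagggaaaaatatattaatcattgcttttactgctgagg
Col10a1: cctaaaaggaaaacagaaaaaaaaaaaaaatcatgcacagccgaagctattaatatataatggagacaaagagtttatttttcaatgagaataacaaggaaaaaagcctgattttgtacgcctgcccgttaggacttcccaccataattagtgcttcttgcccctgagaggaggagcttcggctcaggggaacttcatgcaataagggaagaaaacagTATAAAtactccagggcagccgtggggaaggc
Col17a1: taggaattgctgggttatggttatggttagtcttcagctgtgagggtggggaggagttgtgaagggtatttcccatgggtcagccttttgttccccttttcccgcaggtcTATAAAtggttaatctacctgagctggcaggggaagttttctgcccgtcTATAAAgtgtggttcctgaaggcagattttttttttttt
Col6a6: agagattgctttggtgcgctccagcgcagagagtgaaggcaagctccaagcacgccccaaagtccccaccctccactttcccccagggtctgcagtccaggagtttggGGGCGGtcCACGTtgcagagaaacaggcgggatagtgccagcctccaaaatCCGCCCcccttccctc

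The 3 sequences of Col3a1, Col10a1 and Col17a1 hold TATAAA, and those of Col1a2 and Col6a6 hold GGGCGG and ACGTG. With Col4a3bp left out, RefSeq windows were matched for 43 of the 57 collagen and modifying genes. The 250 bases before the start were searched on both strands, and none of the motifs contains another. TATAAA was found in 3 of 10 members that were higher (Col10a1, Col11a2 and Col17a1), 1 of 15 lower (Col3a1) and 1 of 15 not past the test (Plod1), and in 6.88% of the windows of 11185 tested genes. GGGCGG was in 6 of 10 higher and 11 of 15 lower members, against 56.5% of tested genes. CCAAT was in 3 of 10 and 5 of 15, against 36.3%. These include Col17a1 (higher) and Col1a2 (lower), whose CCAAT lies outside the stretches shown. The share with ACGTG was 2 of 10 and 4 of 15, against 20.9%, and with CAGACA 2 of 10 and 4 of 15, against 13.9%. A match is only a run of letters, and no test was made of these shares.

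The fibrillar collagens form the tensile fibrils of connective tissue. Of 11 chains, 6 fell, 4 rose and 1 did not pass, with a median log2 change of -0.16 (all tested genes, -0.06). Type I collagen, the main fibril protein of skin, tendon and bone, gave the most reads of any collagen. Col1a1, its major chain, had 137388 and 141831 normalized reads in the scramble libraries and 84718, 84173 and 89548 in the LINE-1 libraries. Its mean went from 139609.6 ± 3142 (SD, n = 2) to 86146 ± 2958 (SD, n = 3) (log2 change -0.70, SE 0.072, adjusted p = 6.2e-07). Col1a2, the partner chain, had 197488 and 205305 normalized reads in the scramble libraries and 123244, 122424 and 129730.4 in the LINE-1 libraries (log2 change -0.69, SE 0.078, adjusted p = 1.9e-06). For both chains every LINE-1 library was below both scramble libraries by far more than the spread within a group. Col3a1, the type III chain that joins type I in elastic tissues, had 19983 and 19676 normalized reads in the scramble libraries and 13187, 12493 and 13700.2 in the LINE-1 libraries (log2 change -0.60, adjusted p = 1.7e-07). Col5a2, a chain of the type V collagen that starts fibrils, had 26415 and 27779.9 normalized reads in the scramble libraries and 18359, 18951 and 18985 in the LINE-1 libraries (log2 change -0.53, adjusted p = 6.2e-07). The LINE-1 values of both genes lay below the scramble values without overlap.

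The remaining type V chains moved otherwise. Col5a1, which pairs with Col5a2, had 16660.0 and 17734 normalized reads in the scramble libraries and 15283, 15442 and 15542 in the LINE-1 libraries (log2 change -0.16, adjusted p = 0.026). The call of this small fall depended on the scaling, the test and single libraries. The change was -0.10, adjusted p = 0.14 with TMM and -0.11 without scramble library 2. It was -0.15, adjusted p = 0.13 without LINE-1 library 1 and -0.16, adjusted p = 0.069 without LINE-1 library 3. The call was also lost with edgeR, with DESeq2, with libraries scaled to equal totals and without a variance trend. Col5a3, a minor type V chain, rose, with 632 and 519 normalized reads in the scramble libraries and 735, 737 and 785 in the LINE-1 libraries (log2 change 0.39, adjusted p = 0.0026). Its groups did not overlap, but without scramble library 2, the lower control, it was 0.25, adjusted p = 0.056. Col11a1, a cartilage fibril chain that fibroblasts also make, fell, with 479.7 and 445 normalized reads in the scramble libraries and 330.2, 287 and 338 in the LINE-1 libraries (log2 change -0.54, adjusted p = 7.5e-04).

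Its type XI partner Col11a2 rose instead, with 400.4 and 313 normalized reads in the scramble libraries and 648, 717 and 725 in the LINE-1 libraries (log2 change 0.97, adjusted p = 1.4e-06). Col27a1, a fibrillar chain best known from cartilage, also rose, with 1219.5 and 1213 normalized reads in the scramble libraries and 1716, 1919 and 1639 in the LINE-1 libraries (log2 change 0.53, adjusted p = 1.4e-05). Col2a1, the main collagen of cartilage, rose 3.64-fold from a low level, with 46.040 and 47.3 normalized reads in the scramble libraries and 177, 182 and 149.6 in the LINE-1 libraries (log2 change 1.83, adjusted p = 2.4e-07). In these 3 genes the lowest LINE-1 library stood above the highest scramble library. Col24a1 did not pass (log2 change 0.77, adjusted p = 0.18), though it was 1.38, adjusted p = 0.038 without scramble library 2. Of 9 chondrocyte markers that are not collagens, 4 had reads enough to be tested with limma. None was higher by limma, at an unadjusted p of 0.05, with edgeR or with DESeq2, and Sox9, the transcription factor of chondrocytes, was lower (log2 change -0.25, adjusted p = 0.0015). Sox9 gave most of the reads of the list; the other 8 summed to 393 to 424 normalized reads in the scramble and 344 to 421 in the LINE-1 libraries, which overlap, and no marker was at 0 in every library. Comp, a cartilage matrix gene, did not pass (log2 change 0.41, adjusted p = 0.37).

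**Figure D3:**
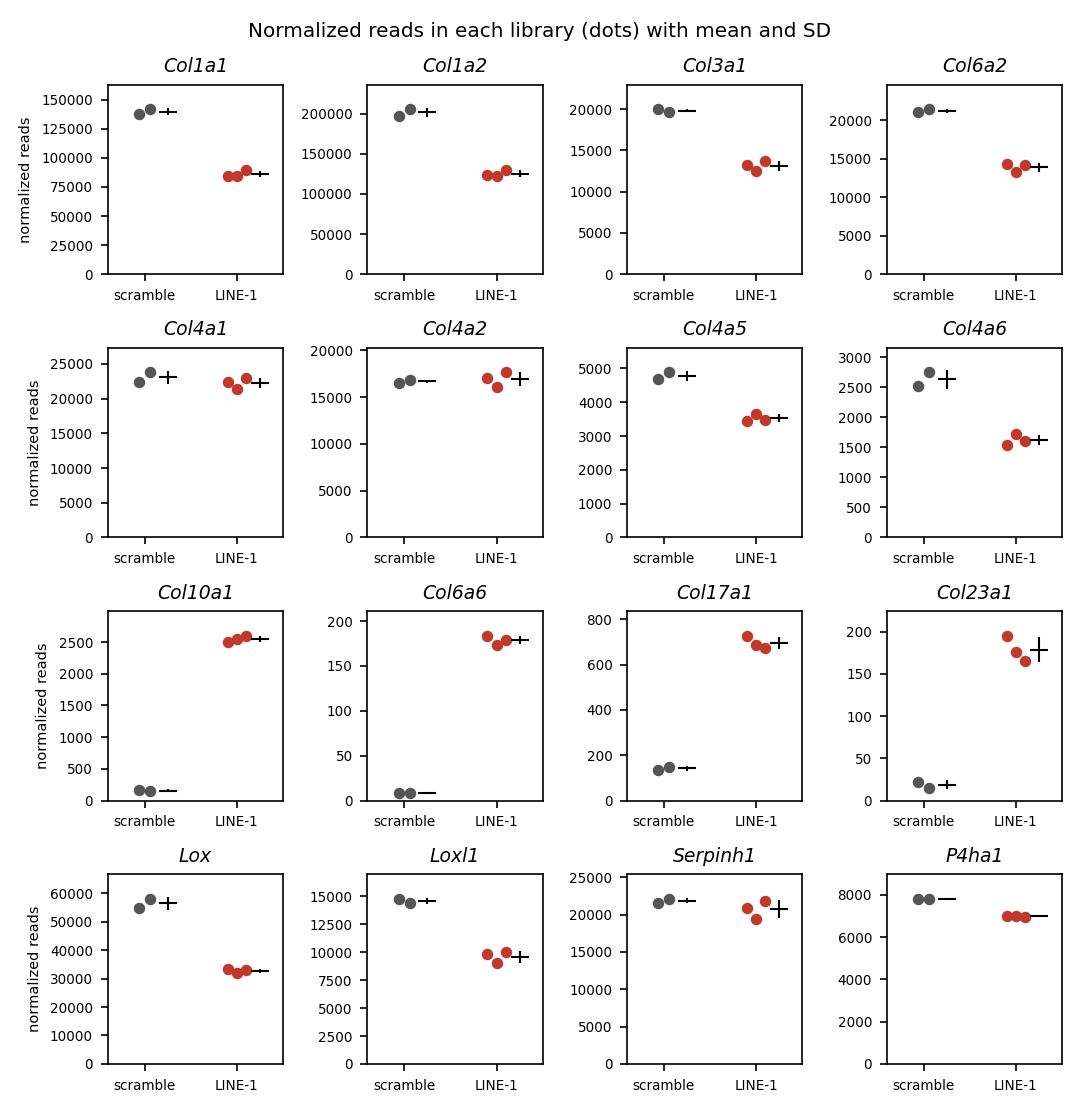
Normalized reads in each library (y axes, linear from 0; dots, libraries; bars, mean and SD) for collagen and modifying genes that fell, rose or did not pass the test. Scramble and LINE-1 dots overlap for Col4a1, Col4a2 and Serpinh1 and are apart in every other panel, with a LINE-1 mean of 0.617 times the scramble mean for Col1a1 and 16.1 times for Col10a1.

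Network collagens form sheets rather than fibrils. Of 9 chains, 1 rose, 3 fell and 5 did not pass, with a median log2 change of 0.02. Col10a1, the short-chain collagen of hypertrophic growth-plate cartilage, rose 16.1-fold, with 171 and 145 normalized reads in the scramble libraries and 2501, 2542 and 2599 in the LINE-1 libraries. Its mean went from 158 ± 18.9 (SD, n = 2) to 2547 ± 49.2 (SD, n = 3) (log2 change 4.01, SE 0.084, adjusted p = 3.1e-16). The LINE-1 libraries differed little among themselves and all stood far above both controls. It ranked 19 of 44 chains by mean reads per kb of exon in scramble (50.5 per kb) and 12 in LINE-1 libraries (814 per kb). The gene lies at chr10:34389981-34397085 in GRCm38 on the plus strand and overlaps Nt5dc1 on the opposite strand, with 18 shared exon bases. Nt5dc1, a putative nucleotidase gene, was also higher, with 1430.4 and 1406 normalized reads in the scramble libraries and 3759, 3821 and 3830.0 in the LINE-1 libraries (log2 change 1.42, adjusted p = 1.1e-12). The strand setting of the authors' counting is not given in the sources used here, so reads of the 2 genes may not be fully separated, and the part of Nt5dc1 in the Col10a1 value was not tested.

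The type IV chains form the mesh of basement membranes and lie in head-to-head pairs in the genome. Col4a1 and Col4a2, whose starts are 21 bases apart on chromosome 8, make its most common trimer. Col4a1 had 22396 and 23769 normalized reads in the scramble libraries and 22443, 21414 and 22911 in the LINE-1 libraries (log2 change -0.05, adjusted p = 0.48). For Col4a2 the values were 16572 and 16833 normalized reads in the scramble libraries and 17009.7, 16123 and 17646 in the LINE-1 libraries (log2 change 0.02, adjusted p = 0.82). In both genes the groups overlapped, and a p that misses the threshold does not show that the level was equal. The pair Col4a5 and Col4a6, 1309 bases apart on chromosome X, fell together. Col4a5 had 4678 and 4879.5 normalized reads in the scramble libraries and 3430.5, 3654 and 3473 in the LINE-1 libraries (log2 change -0.44, adjusted p = 4.6e-06). Col4a6 had 2520.4 and 2748 normalized reads in the scramble libraries and 1546, 1719 and 1603 in the LINE-1 libraries (log2 change -0.70, adjusted p = 1.8e-07). Their groups did not overlap. Col4a3 and Col4a4, the pair best known from kidney, did not pass (log2 changes 0.10 and 0.47). Col8a1, a type VIII chain made by vascular and other mesenchymal cells, fell, with 4711 and 5019 normalized reads in the scramble libraries and 3474, 3469 and 3571 in the LINE-1 libraries (log2 change -0.47, adjusted p = 1.9e-06), and its partner Col8a2 did not pass (log2 change 0.72, adjusted p = 0.15).

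Type VI collagen forms beaded filaments around cells. Of the 9 chains of types VI, VII, XXVI and XXVIII, 8 were tested: 3 fell, 3 rose and 2 did not pass, with a median log2 change of 0.50. The chains of the common type VI trimer all fell. Col6a1 had 30519 and 30559.7 normalized reads in the scramble libraries and 22516, 21373 and 22702 in the LINE-1 libraries (log2 change -0.46, adjusted p = 4.2e-06). Col6a2, its neighbour on chromosome 10, had 21062 and 21432 normalized reads in the scramble libraries and 14269.8, 13225 and 14208 in the LINE-1 libraries (log2 change -0.61, adjusted p = 1.1e-07). Col6a3, the longest chain, had 20722 and 24033 normalized reads in the scramble libraries and 15181, 15233 and 14586 in the LINE-1 libraries (log2 change -0.57, adjusted p = 1.3e-06). In all 3 genes the groups were apart, although scramble library 2 was well above scramble library 1 for Col6a3. Col6a6, a later-described chain that can take the place of Col6a3, rose 21.4-fold, with 8.57 and 8.18 normalized reads in the scramble libraries and 184, 174 and 179 in the LINE-1 libraries (log2 change 4.26, SE 0.22, adjusted p = 6.5e-11). The scramble values rest on few reads (8 and 9 recovered reads), so the fold is less certain than its sign, and the 3 LINE-1 values lay close together. Its neighbours of the same cluster on chromosome 9 were low, Col6a4 with 16.1 and 9.09 against 15.4, 12.8 and 21 normalized reads (log2 change 0.38, adjusted p = 0.47) and Col6a5 untested with 5.35 and 4.54 against 15.4, 7.44 and 8.75 normalized reads.

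Col7a1, the anchoring fibril of the skin basement membrane, rose, with 200.2 and 183 normalized reads in the scramble libraries and 293, 324 and 267 in the LINE-1 libraries (log2 change 0.62, adjusted p = 8.9e-04). Col28a1, a von Willebrand domain collagen found around peripheral nerve, rose 2.25-fold, with 218 and 184 normalized reads in the scramble libraries and 457, 479.9 and 422 in the LINE-1 libraries (log2 change 1.17, adjusted p = 3.9e-07). Both genes had groups that did not overlap. Col26a1 did not pass (log2 change 0.85, adjusted p = 0.086).

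Fibril-associated collagens sit on the surface of fibrils. Of 9 members, 8 were tested: 3 fell, 1 rose and 4 did not pass, with a median log2 change of -0.49. Col16a1, a chain made by fibroblasts and smooth muscle, fell, with 20659 and 19612 normalized reads in the scramble libraries and 13011, 12552 and 13389.6 in the LINE-1 libraries (log2 change -0.63, adjusted p = 6.4e-08). Col12a1, which binds type I fibrils, fell, with 3372 and 3982 normalized reads in the scramble libraries and 2719.9, 2404 and 2366 in the LINE-1 libraries (log2 change -0.56, adjusted p = 1.2e-05). Col14a1, a close relative of Col12a1, had 178 and 165 normalized reads in the scramble libraries and 84.1, 123 and 137 in the LINE-1 libraries (log2 change -0.61, adjusted p = 0.017). For Col16a1 and Col12a1 the groups were wide apart, while LINE-1 library 1 was well below the other LINE-1 libraries for Col14a1. The fall of Col14a1 was -0.40, adjusted p = 0.081 without that library and -0.56, adjusted p = 0.088 without scramble library 1. Col9a3, a cartilage type IX chain, rose from a low level, with 62.1 and 38.2 normalized reads in the scramble libraries and 102, 101 and 111 in the LINE-1 libraries (log2 change 1.09, adjusted p = 7.1e-04). It shares 234 exon bases with Tcfl5 on the opposite strand, which had 1.07 and 9.9990 against 2.31, 4.73 and 8.75 normalized reads. Col9a1, Col19a1, Col20a1 and Col22a1 did not pass, with log2 changes of -0.42, -0.57, 0.22 and -0.23, and the untested Col9a2 had 1.07 and 0 against 3.09, 0 and 7.0002 normalized reads.

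Transmembrane collagens are anchored in the plasma membrane, and the multiplexins Col15a1 and Col18a1 lie in basement membrane zones. Of 6 members, 5 were tested with limma: 3 rose, none fell and 2 did not pass, with a median log2 change of 1.27. None of the 5 was lower at an unadjusted p of 0.05, with edgeR or with DESeq2. Col17a1, the collagen of hemidesmosomes in basal keratinocytes, rose 4.90-fold, with 135 and 149 normalized reads in the scramble libraries and 728, 687 and 675 in the LINE-1 libraries (log2 change 2.29, SE 0.10, adjusted p = 1.3e-11). Col23a1, a membrane collagen that is also shed, rose 9.42-fold, with 22.5 and 15.5 normalized reads in the scramble libraries and 195, 176 and 165 in the LINE-1 libraries (log2 change 3.19, SE 0.21, adjusted p = 2.4e-09). In both genes the lowest LINE-1 library was several times the highest control. Col15a1 was near the floor, with 8.57 and 5.45 normalized reads in the scramble libraries and 16.2, 13.5 and 26.3 in the LINE-1 libraries (log2 change 1.27, adjusted p = 0.024), and its rise was 0.99, adjusted p = 0.12 without scramble library 2, 1.01, adjusted p = 0.13 without LINE-1 library 3 and adjusted p = 0.068 with DESeq2. Col18a1, the source of the fragment endostatin, had 197 and 205 normalized reads in the scramble libraries and 182, 214 and 194 in the LINE-1 libraries (log2 change -0.03, adjusted p = 0.87). Col25a1 had 24.6 and 17.3 normalized reads in the scramble libraries and 10.031, 25.7 and 26.3 in the LINE-1 libraries (log2 change -0.11, adjusted p = 0.85), with groups that overlapped, and Col13a1 was too low to test with 0 and 12.7 against 18.5, 10.1 and 4.38 normalized reads.

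The 4 members with a log2 rise of 2 or more were Col6a6, Col10a1, Col17a1 and Col23a1, where 4.02% of all tested genes rose as much. Marker genes of other cell types moved beside these rises, and their part in them was not tested. Their counts stand beside 18.2% higher and 25.4% lower over all tested genes. The 9 epithelial markers summed to 83.6 to 101 in the scramble and 88.7 to 103 normalized reads in the LINE-1 libraries, and none of the 3 tested was higher or lower by limma, at an unadjusted p of 0.05, with edgeR or with DESeq2. The 9 leukocyte markers summed to 195 to 221 and 399 to 452, with 5 of 7 tested higher. Cd68 alone had 141 to 162 and 238 to 266, and the other 8 genes 54.5 to 58.9 and 161 to 191. Muscle markers (7 genes) summed to 142 to 156 and 2131 to 2194, with Des the 1 higher of 3 tested. Des alone had 91.009 to 107 and 2039 to 2119, and the other 6 genes 49.1 to 51.4 and 74.8 to 92.6. The 8 endothelial markers summed to 117 and 152 to 199, with 2 of 5 tested higher. The sums of the leukocyte, muscle and endothelial lists were higher in every LINE-1 library, and the epithelial sums overlapped. Of the epithelial markers, Krt14 alone had 34.5 to 51.4 normalized reads in the scramble and 27.8 to 41.2 in the LINE-1 libraries. The other 8 epithelial genes summed to 49.1 to 49.3 and 60.4 to 62.2, higher in every LINE-1 library. The 9 osteoblast markers summed to 65479 to 66579.9 and 35473 to 38011, with 3 of 6 tested lower, and are mostly Spp1 (60102 to 61519 and 31348 to 34164). The 6 adipocyte markers summed to 1103 to 1133 and 1003 to 1034, with 2 higher and 1 lower of 3 tested. That sum is mostly Lpl, the lower gene, and the other 5, with Fabp4 (3.05) and Pparg (2.54) higher, summed to 32.1 to 36.4 and 197 to 208. No marker of these lists was at 0 in every library.

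Lysyl oxidases start the cross-links of collagen and elastin by oxidizing lysine side chains. Of 5 genes 4 were tested: 3 fell and none rose by limma, with a median log2 change of -0.44. Lox, with the most reads of them, had 54874 and 57959 normalized reads in the scramble libraries and 33264, 32025 and 33017 in the LINE-1 libraries. Its mean went from 56416 ± 2181 (SD, n = 2) to 32769 ± 656 (SD, n = 3) (log2 change -0.78, SE 0.060, adjusted p = 1.4e-08), the most negative change of any collagen or modifying gene tested. Loxl1, needed for elastic fibers, had 14772 and 14389 normalized reads in the scramble libraries and 9808, 8995 and 10018 in the LINE-1 libraries (log2 change -0.60, adjusted p = 1.9e-07). The fall of Loxl3 was smaller, with 5704 and 5569 normalized reads in the scramble libraries and 4594, 4592 and 4778 in the LINE-1 libraries (log2 change -0.28, adjusted p = 3.5e-04), and the gene shares 535 exon bases with Htra2 on the opposite strand (5267 and 4922 against 4697, 4298 and 4842 normalized reads). For these 3 genes no LINE-1 library reached the scramble range. Loxl4 had 1194 and 1213 normalized reads in the scramble libraries and 1383, 1270.1 and 1376 in the LINE-1 libraries (log2 change 0.16, adjusted p = 0.071) and was the 1 gene higher at an unadjusted p of 0.05, with edgeR and with DESeq2, and 0.20, adjusted p = 0.032 without LINE-1 library 2. The untested Loxl2 had 7.49 and 1.82 against 10.8, 4.73 and 10.5 normalized reads. Summed over the 5 genes, lysyl oxidase signal changed by -37.8% in the mean, and that of type I collagen by -38.0%.

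Of the 8 genes that act on procollagen in the endoplasmic reticulum or on its propeptide, 4 fell, 4 did not pass and none rose by limma, at an unadjusted p of 0.05, with edgeR or with DESeq2, and the median log2 change was -0.15. Pcolce, which speeds removal of the carboxyl propeptide, had 14516 and 13580.5 normalized reads in the scramble libraries and 10769.9, 10355 and 11020.0 in the LINE-1 libraries (log2 change -0.39, adjusted p = 1.9e-05), and shares 112 exon bases with Fbxo24 (470.0 and 428 against 437, 454 and 547 normalized reads). Serpinh1, the collagen-specific chaperone and an abundant gene, had 21607 and 22099.6 normalized reads in the scramble libraries and 20902, 19422 and 21871 in the LINE-1 libraries (log2 change -0.08, adjusted p = 0.32). The Pcolce groups were apart, whereas the Serpinh1 groups overlapped. Plod3, a lysyl hydroxylase that also adds sugars, fell, with 10212 and 9754 normalized reads in the scramble libraries and 8507, 7814 and 8347 in the LINE-1 libraries (log2 change -0.28, adjusted p = 5.2e-04); its neighbour Znhit1 shares 529 exon bases on the opposite strand (2061 and 1805 against 1968, 1614 and 1866 normalized reads). P4ha3, the prolyl hydroxylase subunit with the fewest reads, fell, with 1012 and 1049.9 normalized reads in the scramble libraries and 794, 822 and 765 in the LINE-1 libraries (log2 change -0.38, adjusted p = 6.0e-04). P4ha1, the main subunit, had 7799 and 7796 normalized reads in the scramble libraries and 6977, 6976 and 6969 in the LINE-1 libraries (log2 change -0.16, adjusted p = 0.015). For these 3 hydroxylase genes every LINE-1 value lay below both controls, with little spread for P4ha1. The call of P4ha1 was lost with TMM (-0.10, adjusted p = 0.10), without LINE-1 library 1 (-0.16, adjusted p = 0.076) and without LINE-1 library 3 (-0.16, adjusted p = 0.052). It was also lost with edgeR, with DESeq2, with libraries scaled to equal totals and without a variance trend. P4ha2, Plod1 and Plod2 did not pass (log2 changes -0.03, 0.04 and -0.14), although Plod2 was -0.17, adjusted p = 0.046 without LINE-1 library 2. Col4a3bp, the gene that only shares the name, had 1934 and 2315 normalized reads in the scramble libraries and 1871, 1909 and 1894 in the LINE-1 libraries (log2 change -0.16, adjusted p = 0.075), and without scramble library 1 it was -0.29, adjusted p = 0.0035.

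Summed over the 44 chains, collagen signal was 549817 and 569593 normalized reads in the scramble libraries and 379454, 374191 and 393105 in the LINE-1 libraries, a mean change of -31.7%. As a share of the gene table it went from 1.67 and 1.71% to 1.21, 1.21 and 1.25%, with no overlap. The make-up of the collagen signal shifted as well. Type I held 60.9 and 60.9% of it in scramble libraries and 54.8, 55.2 and 55.8% in LINE-1 libraries. Type IV went from 8.41 and 8.48% to 11.7, 11.5 and 11.6%, and type V from 7.95 and 8.08% to 9.06, 9.39 and 8.98%. These are larger shares of a smaller total, since summed type IV reads changed by -6.04% and type V reads by -22.1%. The summed reads of Col4a1 and Col4a2 changed by -1.51%. Taken as a share of the gene table, that pair changed by 4.31% and all type IV chains by -0.47%. The direction for the pair thus depended on the scaling. The type VI share overlapped between groups, with 13.2 and 13.4% against 13.8, 13.4 and 13.2%. The 12 chains that rose went from a mean of 2972 to 7849 normalized reads together, and still made up only 2.05% of the collagen signal, from 0.532%. They were picked by their rise in these same libraries, so their sum had to rise. Col10a1 alone went from a mean of 158 to 2547 normalized reads. By reads per kb of exon, Col1a1, Col1a2, Col6a1 and Col4a1 kept ranks 1 to 4 among the chains in both groups, and Col4a2 went from rank 8 to 5.

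**Figure D4:**
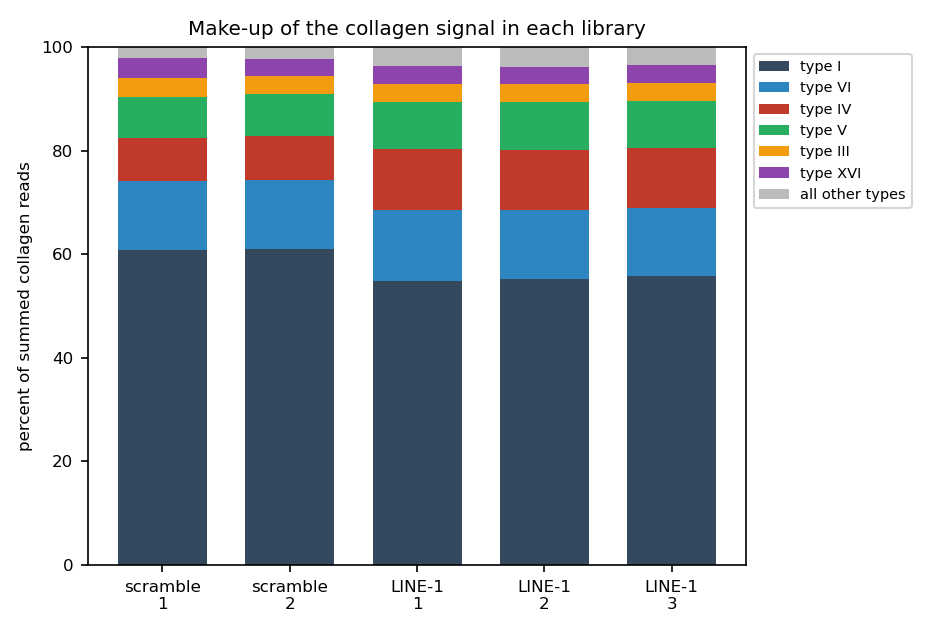
Share of summed collagen reads held by each collagen type in each of the 5 libraries (y axis, percent; stacked bars). Type I takes 60.9 and 60.9% in scramble and 54.8 to 55.8% in LINE-1 libraries. The type IV share widens from 8.41 and 8.48% to between 11.5 and 11.7% of a smaller total.

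Ratios of 2 chains within a library, of normalized reads plus 1, depend little on library scaling and were compared for 12 pairs. With 2 against 3 libraries there are 10 splits, and the exact permutation test (two-sided) cannot give a p under 0.1, so no pair could pass; adjusted over the 12 pairs, a p of 0.1 became 0.133. The log2 ratio of Col1a1 to Col1a2 was -0.52 and -0.53 in the scramble and -0.54, -0.54 and -0.53 in the LINE-1 libraries, a difference of -0.01. The type I chains thus kept nearly the same proportion while both fell. The ratio of Col4a1 to Col4a2 differed by -0.07 and that of Col6a1 to Col6a2 by 0.15. Within types, larger shifts came in Col5a1 to Col5a2, which was -0.66 and -0.65 in the scramble and -0.26, -0.30 and -0.29 in the LINE-1 libraries, a difference of 0.37. Col5a3 to Col5a1 shifted by 0.55, Col4a5 to Col4a1 by -0.39 and Col8a1 to Col8a2 by -1.19. The last rests on Col8a2, which did not pass the test and had 9 recovered reads in each scramble library, and it was -1.22 with a pseudocount of 0.5 and -0.94 with 8. Across partners, Col3a1 to Col1a1 shifted by 0.10 and Loxl1 to Lox by 0.18. These 9 ratios had groups that did not overlap (exact p = 0.1 each, the smallest possible). P4ha2 to P4ha1 (0.13, exact p = 0.20) and Plod2 to Plod1 (-0.18, exact p = 0.20) were also apart. Among all tested single genes, 61.8% had groups that did not overlap. The share over other pairs of genes was not computed, so the number of pairs apart is only a description. Without scramble library 2, the shift was 0.36 for Col5a3 to Col5a1, -0.039 for Col4a1 to Col4a2 and 0.067 for Col3a1 to Col1a1. Without scramble library 1, that of Col1a1 to Col1a2 was -0.0051. For Col6a3 to Col6a1 the groups overlapped (-0.11, exact p = 0.40), and the shift was -0.0066 without scramble library 2 and -0.22 without scramble library 1.

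**Figure D5:**
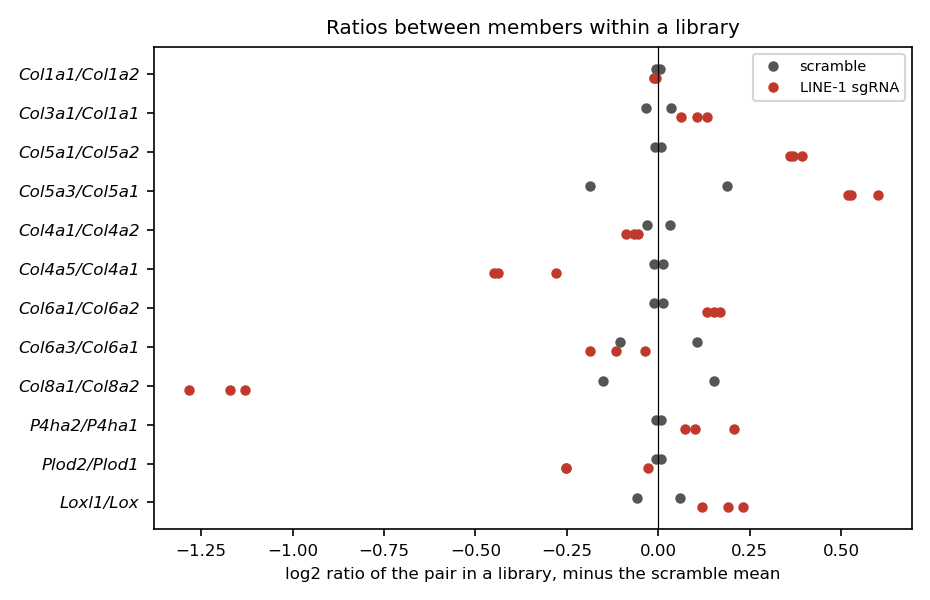
Log2 ratio of 2 chains or enzymes in each library minus the scramble mean of that ratio (x axis; dots, libraries), for the 12 pairs (y axis). LINE-1 dots lie near 0 for Col1a1 to Col1a2 (mean -0.01), to the right for Col5a1 to Col5a2 (0.37) and far to the left for Col8a1 to Col8a2 (-1.19).

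Other genes of collagen production were compared from lists. Of 73 genes, 61 were tested, and 6 (9.84%) were higher and 26 (42.6%) lower, where 18.2% of all tested genes were higher and 25.4% lower. Among all genes with a mean of at least 1000, 35.6% were lower. Of 11 tested in folding and modification, 6 were lower and none higher by limma, at an unadjusted p of 0.05, with edgeR or with DESeq2. They include Crtap, part of the prolyl hydroxylation complex (log2 change -0.34, adjusted p = 2.0e-04), and Colgalt1, which adds galactose to hydroxylysine (log2 change -0.24, adjusted p = 0.0012). Of 11 secretion genes, 2 were lower and 1 higher: the vesicle coat gene Sec23a (log2 change -0.31, adjusted p = 1.8e-04), the retrieval receptor gene Kdelr2 (log2 change -0.23, adjusted p = 0.0026) and, rising, the stress-activated transcription factor gene Creb3l1 (log2 change 0.23, adjusted p = 0.0080). Among 4 propeptide-processing genes tested, the amino-propeptide proteases Adamts2 (log2 change -0.70, adjusted p = 1.4e-06) and Adamts14 (log2 change -0.53, adjusted p = 1.3e-06) fell and none rose by limma, at an unadjusted p of 0.05, with edgeR or with DESeq2. Adamts2 had 1217 and 1305 normalized reads in the scramble libraries and 792, 812 and 726 in the LINE-1 libraries, and its groups did not overlap.

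Of 8 receptor genes tested, 3 fell and 1 rose, with Mrc2, an uptake receptor for collagen (log2 change -0.50, adjusted p = 5.0e-07), and Ddr2, a receptor kinase for fibrillar collagen (log2 change -0.46, adjusted p = 2.3e-05), among those that fell. Itga10, an integrin subunit of cartilage, was the 1 that rose (log2 change 0.62, adjusted p = 8.1e-04). Of 7 breakdown genes tested, 2 were higher and 4 lower. Mmp13, the collagenase of cartilage and bone, rose, with 26.8 and 13.6 normalized reads in the scramble libraries and 144, 135 and 136 in the LINE-1 libraries (log2 change 2.78, SE 0.25, adjusted p = 1.2e-07). Mmp2, a gelatinase of fibroblasts, fell (log2 change -0.41, adjusted p = 6.4e-06). Of 20 regulators tested, 2 rose and 9 fell. Genes of TGF-beta signalling, which is known to raise collagen production in fibroblasts, moved both ways. Tgfb1, a ligand gene, rose, with 2200.3 and 2295 normalized reads in the scramble libraries and 4003, 3879.8 and 4229.8 in the LINE-1 libraries (log2 change 0.84, adjusted p = 2.7e-09). The ligand genes Tgfb2 (log2 change -0.45, adjusted p = 0.0041) and Tgfb3 (log2 change -0.44, adjusted p = 8.2e-06) fell. So did the receptor gene Tgfbr2 (log2 change -0.46, adjusted p = 6.6e-06) and the signal carrier genes Smad2 (log2 change -0.25, adjusted p = 0.0027) and Smad3 (log2 change -0.46, adjusted p = 2.7e-06). Tgfbr1, Smad4 and the inhibitor gene Smad7 did not pass, with log2 changes of -0.08, -0.11 and 0.15.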

How the data were processed

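RNA-seq of 5 NIH3T3 libraries was used, 2 with scramble and 3 with LINE-1 guides. Per the labels, total RNA and an Illumina RNA library kit were used. The deposited gene table holds a normalized signal (counts divided by a size factor) made by the authors. Per the submitters' processing notes, STAR 2.5.3a, Bowtie2 2.2.9, bedtools 2.27.1, SAMtools 1.9, DESeq2 and the builds mm10 and GRCm38 were named; no source used here states the counting or strand settings. Dividing each value by the smallest step gave whole reads for 100% of values, within 1e-04 reads, 30681384 and 36726985 per scramble and 40791356, 45596490 and 35996907 per LINE-1 library. Log2(value + 1) of the 14337 genes with a mean of at least 10 was tested with limma 3.58.1 (R 4.3.3) with a variance trend and Benjamini-Hochberg adjustment at 0.05. A fold on this scale understates changes of low genes. Alternatives were edgeR 4.0.16 and DESeq2 1.42.0 on recovered reads, TMM, equal totals, other pseudocounts and filters, no trend, a replicate block and each library left out. The code recovered folds in simulated counts in which few genes changed, about evenly up and down, with the same dispersion for every gene. Fold size was checked there only for genes well above the floor. In these data 43.5% of tested genes were called, so the simulation checks the code and not these results. Ratios and sums were computed per library. Positions are from GENCODE M 21, promoters from RefSeq. Between libraries of a group the chi-square per df was 3.05 to 8.87, more than counting error alone gives, so none was a copy of another. It does not tell separate cultures from repeated preparations. In each role list the 4 members with the smallest p, the 2 with the highest mean and every higher member were named, and the other members are given so that each is accounted for; in each pathway list the 2 with the smallest p were named, except 1 that is not reported here, and Creb3l1, Itga10, marker genes and the other TGF-beta and Smad genes were added after their values were seen. Members and lists were chosen with earlier results of these data known.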

Additional observations from a re-analysis of the deposited data

How the results depend on the processing

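Of 34 called members, 29 kept their call and direction under every alternative run; Col5a1, P4ha1, Col15a1, Col14a1 and Col5a3 lost it under at least 1. Members higher numbered 12 and lower 22, and leaving out each library gave 11 to 13 and 19 to 23. Enzymes higher went from 0 to 1 (Loxl4) with TMM, equal totals, edgeR and DESeq2, and 0 to 1 on leaving out each library. All genes lower numbered 2136 with equal totals and 2332 without a variance trend, against 3637. Higher and lower genes numbered 3280 and 2136 with equal totals, 3039 and 2583 with edgeR and 2808 and 2430 with DESeq2. Summed collagen changed by -27.7% with equal totals and -28.9% with TMM, and type I by -34.4% with equal totals. Changes near 0 reversed sign, none past the threshold in either direction: with TMM, Col4a1 0.0052, Col18a1 0.026 and P4ha2 0.024; with equal totals, Col4a1 0.031, Col18a1 0.052, P4ha2 0.049 and Serpinh1 0.0055. With edgeR these were Col4a1 0.0053, Col18a1 0.031, P4ha2 0.025 and Col25a1 0.051, and with DESeq2 0.0034, 0.029, 0.023 and 0.041. Leaving out each library gave Col4a3 -0.075 to 0.31, Col25a1 -0.36 to 0.32, Col4a2 -0.012 to 0.053 and Col18a1 -0.093 to 0.023. The cause was not tested. These scalings moved the median of all genes by 0.06 to 0.08.

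The replicate numbers are shared between groups, and deviations of same-numbered libraries correlated at -0.01 and 0.07. With 2 scramble libraries, their deviations from the group mean are mirror images. The correlations therefore cannot show whether same-numbered libraries were made together. With the replicate block, to which the unpaired LINE-1 library 3 adds no information on the difference, 11 members were higher and 23 lower, 2667 and 3906 of all genes, and Col4a2 was -0.012. Depth limits the folds of Col6a6 and Col15a1, whose control level rests on few reads.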
